A study of Mus musculus with 6 samples.

Results

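Interferon regulatory factors (IRFs) and the BATF factors form the set of transcription factor genes described here, in the mouse macrophage-like cell line RAW264.7 with and without interleukin-4 (IL-4). The members were 10 genes taken by symbol from the deposited expression table of 25124 genes: Irf1, Irf2, Irf3, Irf4, Irf5, Irf7, Irf8, Irf9, Batf and Batf3. M2 was 3 libraries of cells treated with 10 ng/ml IL-4, the cytokine that drives alternative activation, and M0 was 3 libraries of the same cells without it. All cells of both groups came from a Cas9 control line, made with a plasmid that carried the nuclease but no guide sequence, as the counterpart of an E4BP4 knockout line. They grew in medium with 25 mM glucose and 10% serum and had been passaged fewer than 15 times. The sources used here do not give the length of the exposure.

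IRFs share a DNA-binding domain at the amino end with conserved tryptophans, which reads repeats of GAAA in the regulatory DNA of interferon and immune genes. IRF3, IRF5 and IRF7 are switched on by phosphorylation below pattern recognition receptors, IRF9 joins STAT proteins in the ISGF3 complex, and IRF1 and IRF2 are an activator and its antagonist at the same sites. IRF4 and IRF8 bind weakly alone and are recruited by PU.1 or by BATF–JUN dimers, and BATF and BATF3 are small basic leucine zipper proteins that lack an activation domain of their own. In mouse macrophages IRF4 is known for its part in alternative activation and IRF8 and IRF5 for inflammatory gene expression.

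Values are TPM, length-scaled transcript levels that the authors deposited, so that members can be set side by side. The deposited values summed to between 550163 and 559556 per library, short of a full per-million total, and the sources used here do not say why. Reads behind each value were recovered from the TPM and the model length, and summed to 18344446, 18139902 and 19511192 for M2 replicates 1, 2 and 3, and to 18110568, 18104946 and 15615639 for M0 replicates 1, 2 and 3. Nothing in the labels says that replicates were separate cultures, so p-values measure the spread between these libraries, which may be technical. The titles of the M0 libraries alone carry a re-analysis note, and any batch this marks cannot be told apart from the treatment. M2 replicate 3 stood apart in its relation to gene length. Its 1280 tested genes under 1000 bases had a median log2 level 0.15 above the other M2 libraries, and its 2921 genes over 4000 bases lay at -0.27. The gap between short and long genes was 0.42 in that library, and between -0.28 and 0.16 in the other 5 libraries. Macrophage markers were expressed throughout, with 8 of 8 tested and a summed level of 2081 to 2180 TPM in M2 and 2230 to 2457 TPM in M0. Markers of dendritic, T, B, fibroblast and epithelial cells summed to at most 2.59 TPM per list in an M2 library and 2.71 TPM in an M0 library, and Cd3g, Cd8a, Krt5 and Krt8 were listed at 0.

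In M2 cells the mix of IRF transcripts differed from that in M0 cells, and Batf3 was far more abundant. Batf3 was 4.38-fold higher in M2. Irf7, Irf2 and Irf5 were higher by between 1.29-fold and 1.49-fold, while Irf8 and Irf9 were 1.60-fold and 1.51-fold lower and Irf1 was 1.22-fold lower. Irf3 did not pass the test, Irf4 was barely detected in either group, and Batf was listed at 0 in all 6 libraries. Of the 10 members, 8 reached the filter of at least 1 TPM in at least 3 libraries, and 7 of these 8 were called by limma at an adjusted p under 0.05, where 43.7% of all 11202 tested genes were. Of the 7, 4 were higher in M2 and 3 lower, against 20.1% and 23.7% of all tested genes. The 8 tested members had M2 and M0 libraries that did not overlap, as did 55.9% of all tested genes. Of these 8, 5 were higher and 3 lower in M2, against 25.1% and 30.8% of all tested genes. At 1.5-fold or more on log2(TPM + 1), 2 members were called (Batf3 and Irf8), against 10.9% of tested genes. At 2-fold or more on log2(TPM + 1), 1 member was called (Batf3), against 2.45% of tested genes. In bulk RNA a change in transcripts per cell and a change in the share of cells that express a gene cannot be told apart.

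**Figure D1:**
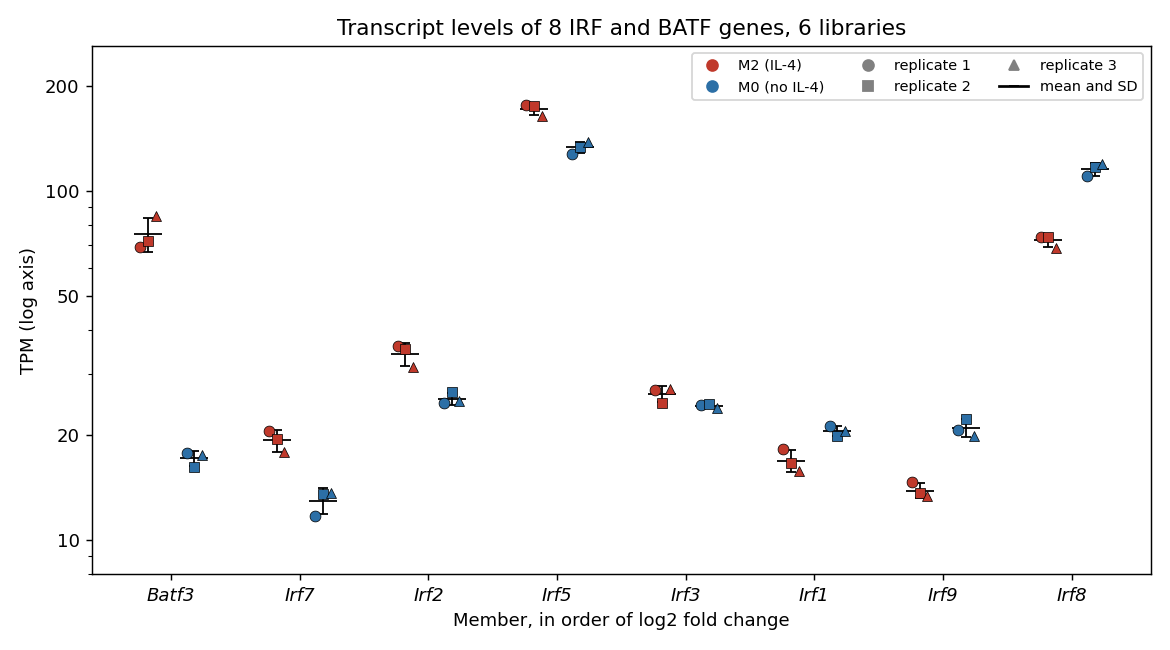
TPM on a log axis for the 8 members that passed the filter, with M2 libraries in red left of M0 libraries in blue, a marker shape for each replicate, and bars for the mean and SD of 3 libraries. Batf3 stands at 69.0 to 84.8 TPM in M2 and at 16.2 to 17.8 TPM in M0, and Irf8 at 68.7 to 74.0 TPM in M2 and at 110.2 to 119 TPM in M0.

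Promoter windows are shown for the members that hold a GAS element, a sequence that STAT proteins read. RefSeq windows on GRCm38.p6, the assembly of the mm10 build, were at hand for 10 of 10 members, 13 windows in all, each running from 250 bases before a transcript start to 50 after it. The 250 bases before the start are printed 5′ to 3′ for the 4 members with a GAS match there, Batf3, Irf8, Irf1 and Irf2. Each match to any motif searched is in capitals. Irf4, which has a match to another motif there, is not printed. Batf3 is at chr1:191098164-191098413, Irf8 at chr8:120736108-120736357, Irf1 at chr11:53769764-53770013 and Irf2 at chr8:46739495-46739744, all on the plus strand.
Batf3: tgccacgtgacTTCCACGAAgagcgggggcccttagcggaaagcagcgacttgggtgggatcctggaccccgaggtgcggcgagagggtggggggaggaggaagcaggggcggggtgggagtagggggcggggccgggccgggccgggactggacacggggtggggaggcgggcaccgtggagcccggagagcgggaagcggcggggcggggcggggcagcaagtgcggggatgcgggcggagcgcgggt
Irf8: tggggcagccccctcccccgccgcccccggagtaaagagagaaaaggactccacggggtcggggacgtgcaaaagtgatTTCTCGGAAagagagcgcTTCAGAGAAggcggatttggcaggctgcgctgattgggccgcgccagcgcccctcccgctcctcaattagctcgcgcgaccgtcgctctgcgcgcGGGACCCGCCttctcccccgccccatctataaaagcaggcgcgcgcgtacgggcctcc
Irf1: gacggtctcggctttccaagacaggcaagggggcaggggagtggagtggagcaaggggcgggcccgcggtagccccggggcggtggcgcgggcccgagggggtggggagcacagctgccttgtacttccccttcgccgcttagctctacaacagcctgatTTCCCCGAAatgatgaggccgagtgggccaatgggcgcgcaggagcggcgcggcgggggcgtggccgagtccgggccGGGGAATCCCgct
Irf2: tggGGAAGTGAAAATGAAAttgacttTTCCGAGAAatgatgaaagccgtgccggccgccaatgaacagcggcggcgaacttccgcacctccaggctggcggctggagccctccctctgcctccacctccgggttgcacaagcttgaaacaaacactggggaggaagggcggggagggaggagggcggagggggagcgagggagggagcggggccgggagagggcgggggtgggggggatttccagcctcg

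Both strands of each window were searched for 7 patterns. The GAS element, TTCNNNGAA, occurred once before Batf3, between 239 and 231 bases ahead of the start, once before Irf1 between 90 and 82 bases, once before Irf2 between 224 and 216 bases, and at 2 places before Irf8, between 171 and 163 and between 153 and 145 bases. This element is in 8.30% of all 32851 windows in the RefSeq table and in 6.73% of the 11075 windows of tested genes. The IRF element, a pair of GAAA boxes with 2 bases between them, held by 3.44% of all windows, occurred before Irf2 alone among the members, and there it overlapped a match of the ETS–IRF composite, GGAA and GAAA with 2 bases between them, held by 2.72%. The STAT6 pattern, TTC and GAA with 4 bases between them, in 6.95% of all windows, matched at bases 2 to 11 of an Irf9 transcript that starts upstream of the model measured here, and in no other member window. A loose NF-kappaB pattern, GGGA and CC with 4 bases between them, in 20.7% of all windows, matched in the Irf1, Irf4 and Irf8 windows. The AP-1 site TGANTCA, in 7.81% of all windows, and the AP-1–IRF composite, GAAA directly before an AP-1 site, in 0.125%, matched in no member window. Irf3, Irf5, Irf7 and Batf had no match to the 7 patterns. Of the 4 genes printed, Batf3 and Irf2 were higher in M2 and Irf8 and Irf1 lower, so the members with this element went both ways.

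Batf3, the leucine zipper factor best known for its role with IRF8 in the development of cross-presenting dendritic cells, had 69.0, 72.0 and 84.8 TPM in M2 libraries, against 17.8, 16.2 and 17.5 TPM in M0 libraries. These values rest on 756, 767 and 1043 reads in M2 and on 198, 174 and 164 reads in M0. Every M2 library lay far above every M0 library, with a gap of 51.2 TPM between the nearest of them. The means were 75.3 ± 8.40 TPM in M2 and 17.2 ± 0.825 TPM in M0 (SD, n = 3 each), a log2 fold change of 2.06 on log2(TPM + 1) (SE 0.084, limma adjusted p = 1.02e-06). It was the ninth largest rise among tested genes on that scale. M2 replicate 3 was the highest library, and the Batf3 model, with 707 bases, is the shortest of the 10 members, so the length relation of that library moves with its value. Without that library the ratio of means was 4.10-fold. In the authors' deposited table, the log2 fold change of Batf3 was 2.18 (adjusted p = 1.97e-55).

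Batf, the founding relative of Batf3, had 0 reads in each M2 and each M0 library. A count of 0 allows up to 3 reads, which corresponds to at most 0.222 TPM in an M2 library and 0.252 TPM in an M0 library. The summed BATF level was therefore that of Batf3 alone. Batf2, the third gene of that family and not a member, had 1.02 ± 0.204 TPM in M2 and 1.52 ± 0.369 TPM in M0 (SD, n = 3 each), and did not pass by limma (adjusted p = 0.0934), though it did without M2 replicate 3 (adjusted p = 0.0485).

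Irf8, a factor of the macrophage and dendritic cell lineages, moved the other way. It had 73.8, 74.0 and 68.7 TPM in M2 libraries, against 110.2, 117 and 119 TPM in M0 libraries, on between 3158 and 5016 reads per library. The M2 libraries lay together and all below the M0 libraries. The means were 72.2 ± 3.02 TPM in M2 and 115 ± 4.67 TPM in M0 (SD, n = 3 each), a log2 fold change of -0.67 (SE 0.058, limma adjusted p = 4.67e-05). Irf4, its closest relative, which is linked to alternative activation, had 0.353, 0.280 and 0.291 TPM in M2 and 0.401, 0.250 and 0.397 TPM in M0. These rest on 26, 20 and 24 reads in M2 and on 30, 18 and 25 reads in M0, and the groups overlapped. It lay under the filter. An exact two-sided permutation test of log2(TPM + 1) gave p = 0.5, and 3 libraries against 3 cannot go below 0.1. With no filter its log2 fold change was -0.04 (limma adjusted p = 0.66), and at this depth no difference was detectable.

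Irf5, an activator of inflammatory cytokine genes, was the most abundant member in both groups. It had 176, 175 and 164 TPM in M2 libraries, against 128, 134 and 138 TPM in M0 libraries. The lowest M2 library was 25.7 TPM above the highest M0 library. The means were 172 ± 6.63 TPM in M2 and 133 ± 5.20 TPM in M0 (SD, n = 3 each), a log2 fold change of 0.36 (SE 0.056, limma adjusted p = 0.00104). Of the bases in Irf5 exons of GENCODE M21, 14.1% are also exonic in Tnpo3 on the other strand. That share is over the exons of all Irf5 transcripts together, 2905 bases, and the model measured here has 2179. Whether the shared stretch lies in the measured model was not checked. Whether the authors' counting used strand was not stated, so any reads counted in that stretch cannot be assigned to either gene. Tnpo3 itself averaged 63.8 TPM in M2 and 57.5 TPM in M0 and did not pass (limma adjusted p = 0.243).

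Of Irf3 and Irf7, which act below viral nucleic acid sensors, Irf7 passed the test and Irf3 did not. Irf7, which is itself an interferon-stimulated gene and amplifies interferon production, had 20.6, 19.5 and 17.9 TPM in M2, against 11.7, 13.6 and 13.7 TPM in M0. Every M2 library was above every M0 library. Its means were 19.3 ± 1.39 TPM in M2 and 13.0 ± 1.11 TPM in M0 (SD, n = 3 each), a 1.49-fold rise (log2 fold change 0.54, SE 0.086, limma adjusted p = 0.00125). Irf3, which is made constantly and activated after translation, had 26.9, 24.7 and 27.2 TPM in M2, against 24.3, 24.5 and 23.9 TPM in M0. The M2 libraries were all higher, the nearest pair by 0.255 TPM. The log2 fold change was 0.11 with a 95% interval of -0.03 to 0.25 and did not pass (limma adjusted p = 0.186). Whether the responses of Irf7 and Irf3 differ was not tested.

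Irf9, the DNA-binding subunit of ISGF3, had 14.7, 13.6 and 13.4 TPM in M2 libraries, against 20.7, 22.3 and 19.9 TPM in M0 libraries. The groups were 5.25 TPM apart at their nearest. The means were 13.9 ± 0.682 TPM in M2 and 21.0 ± 1.22 TPM in M0 (SD, n = 3 each), a log2 fold change of -0.56 (SE 0.073, limma adjusted p = 4.20e-04). Its neighbour on the same strand, Rnf31, shares 123 of the 5386 exonic bases of Irf9, or 2.28%, and was also lower, with 5.98 TPM in M2 and 8.37 TPM in M0 (limma adjusted p = 0.0145). The 5386 bases are those of all Irf9 transcripts together, and the model measured here has 2332. Whether the shared bases lie in the measured model was not checked, and any part of them in the Irf9 result was not tested.

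The activator and antagonist Irf1 and Irf2 moved in opposite directions. Irf1, which interferon gamma induces, had 18.2, 16.6 and 15.8 TPM in M2, against 21.2, 19.9 and 20.5 TPM in M0. The M2 libraries were all lower, by at least 1.67 TPM. Its means were 16.9 ± 1.21 TPM in M2 and 20.5 ± 0.690 TPM in M0 (SD, n = 3 each), a log2 fold change of -0.27 (SE 0.073, limma adjusted p = 0.0159). The Irf1 call ended without M0 replicate 1 (adjusted p = 0.0624) and without M0 replicate 3 (adjusted p = 0.0584). Irf2 had 36.1, 35.2 and 31.3 TPM in M2, against 24.7, 26.6 and 25.0 TPM in M0, with no overlap between the groups. Its means were 34.2 ± 2.55 TPM in M2 and 25.4 ± 1.03 TPM in M0 (SD, n = 3 each), a 1.34-fold rise (log2 fold change 0.41, SE 0.072, limma adjusted p = 0.00193).

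**Figure D2:**
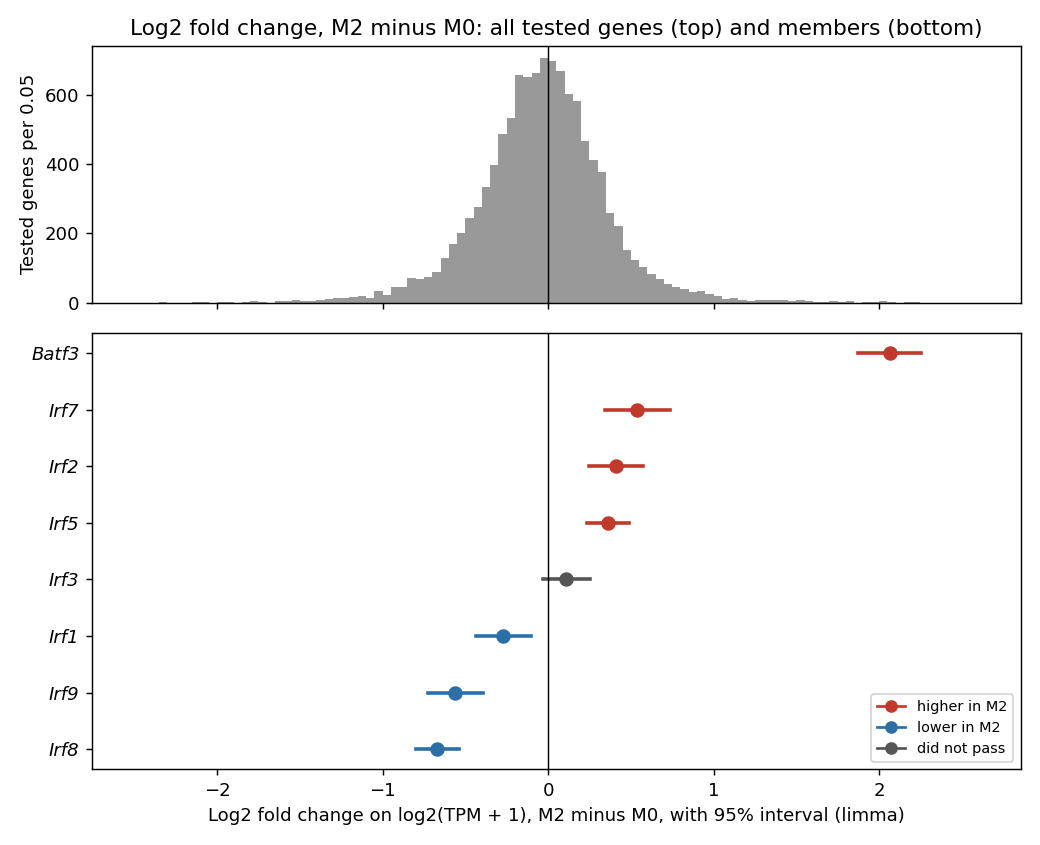
Log2 fold change on log2(TPM + 1), M2 minus M0. The upper panel is a histogram of the 11202 tested genes (4 lie outside the plotted range) and the lower panel gives the 8 tested members with 95% intervals from limma. Batf3 at 2.06 lies in the far right tail, the IRFs lie between -0.67 and 0.54, and the interval of Irf3 alone includes 0.

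The authors' deposited table gave every member but Batf, for which it lists no fold change, the same direction. It listed adjusted p-values of 1.08e-20 for Irf8, 4.47e-09 for Irf5, 7.96e-08 for Irf9, 5.35e-07 for Irf7, 1.58e-07 for Irf2 and 0.0364 for Irf1. In that deposited table by the authors Irf3 had an adjusted p of 0.200 and Irf4 one of 0.817. The authors' deposited table measures Irf3, Irf4, Irf7 and Irf9 on another transcript model than the TPM table does, and the same libraries underlie both.

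The make-up of the IRF pool shifted, and its summed level did not differ detectably. The summed TPM of the 8 IRF genes was 366, 359 and 338 in M2 libraries, against 341, 358 and 361 in M0 libraries. The groups overlapped, with means of 355 ± 14.5 TPM in M2 and 353 ± 10.6 TPM in M0 (SD, n = 3 each; exact two-sided permutation p = 0.9). The summed BATF level had an exact two-sided permutation p = 0.1, the smallest that 3 against 3 allows, and 0.2 adjusted over the 2 sums. Irf5 made up 48.0% to 48.7% of the IRF sum in M2 and 37.4% to 38.3% in M0. Irf8 made up 20.1% to 20.6% in M2 and 32.3% to 33.0% in M0. The remaining 6 IRF genes together made up the rest, with Irf4 at or below 0.118% in every library.

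Ratios within a library do not depend on how libraries are scaled to each other. These 3 pairs were chosen after their values were seen and are given as a description. The Irf5/Irf8 ratio of TPM was 2.38, 2.36 and 2.39 in M2 libraries, against 1.16, 1.15 and 1.16 in M0 libraries. It was 2.06 times as high in M2, and in each group the 3 libraries were nearly equal, M2 replicate 3 included. The Irf7/Irf9 ratio was 1.41, 1.43 and 1.34 in M2, against 0.566, 0.608 and 0.689 in M0, so Irf7 was the more abundant of the 2 in M2 and Irf9 in M0. The Irf2/Irf1 ratio was 1.98, 2.12 and 1.98 in M2, against 1.16, 1.34 and 1.22 in M0.

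**Figure D3:**
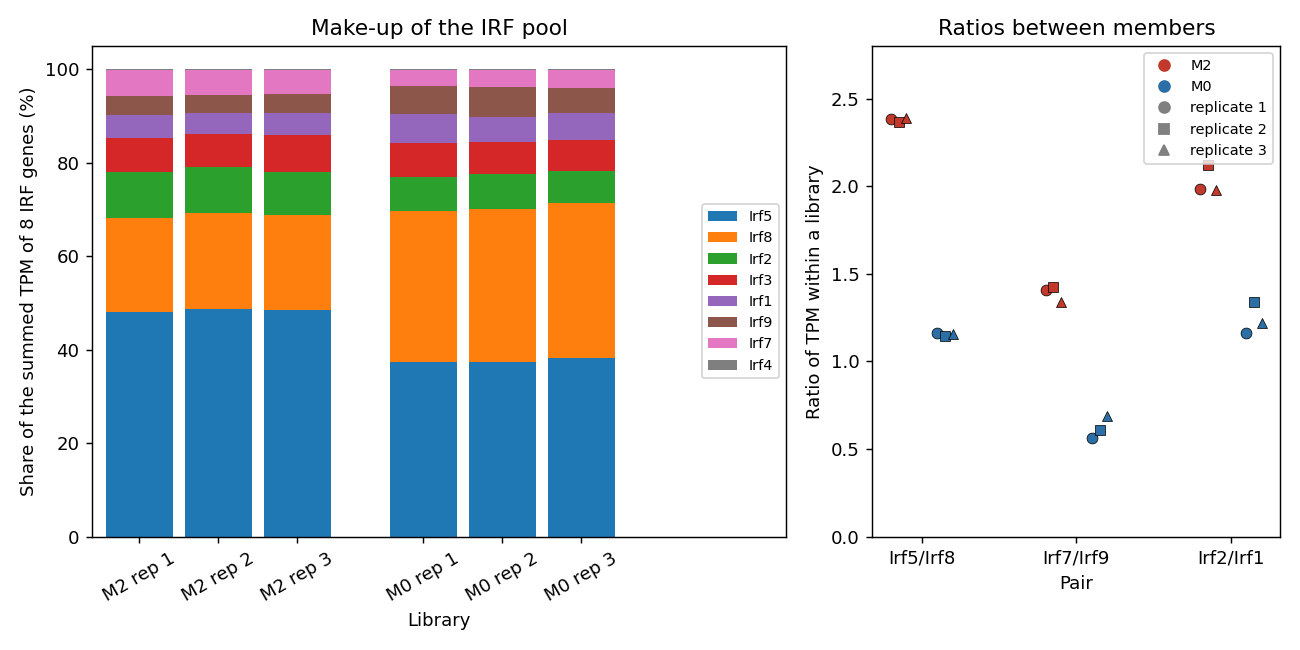
The left panel stacks, for each of 6 libraries, the share of each IRF gene in the summed TPM of the 8 IRF genes, and the right panel plots the ratio of TPM of 3 pairs within each library (M2 red, M0 blue, a shape for each replicate). Irf5 takes 48.0% to 48.7% of the pool in M2 and 37.4% to 38.3% in M0, and the Irf5/Irf8 ratio is near 2.38 in M2 and near 1.16 in M0.

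The order of levels changed with the mix. In M2 libraries it was Irf5, Batf3, Irf8, Irf2, Irf3, Irf7, Irf1, Irf9, Irf4 and Batf by mean TPM. In M0 libraries it was Irf5, Irf8, Irf2, Irf3, Irf9, Irf1, Batf3, Irf7, Irf4 and Batf. Neighbours whose libraries overlapped, and so did not differ beyond their spread, were Batf3 and Irf8 and also Irf7 and Irf1 in M2, and Irf9 and Irf1 in M0. Among the 8 tested members M2 replicate 3 was the lowest M2 library for 6 and the highest for 2, Irf3 and Batf3.

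Genes whose profiles over the 6 libraries lay closest to Batf3 were Id1 (Euclidean distance 0.24 between centred log2(TPM + 1) profiles), Myc (0.26) and Tfec (0.29). Id1, whose product blocks DNA binding by helix-loop-helix partners, averaged 122 ± 10.2 TPM in M2 and 25.8 ± 1.93 TPM in M0 (SD, n = 3 each). Tfec, a factor of the MITF family, averaged 3.56 ± 0.551 TPM in M2 and 0.102 ± 0.0146 TPM in M0. The profiles closest to Irf8 were those of Zdhhc18 (0.07), Tap2 (0.08) and Acap1 (0.08). Tap2, a subunit of the peptide transporter that loads class I molecules, averaged 24.6 ± 0.380 TPM in M2 and 38.7 ± 2.01 TPM in M0. The 6 libraries fall in 2 groups, so a like difference between the groups is part of each small distance.

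The genes around these factors were described through 11 lists, which share a few genes. Of 148 distinct listed genes in the table, 116 were tested, and 27 were higher and 47 lower in M2. These are 23.3% and 40.5% of the listed genes tested, against 20.1% and 23.7% of all tested genes. The shares over all tested genes are those to set beside the count of each list. The higher listed genes include Arg1, Mrc1 and Pparg, which passed the filter through their M2 libraries alone, so their direction was fixed. Others were listed as known markers of the treatment, so the share of higher listed genes is only a description. Receptors and kinases upstream of the factors went both ways, with 3 higher and 6 lower of 13 tested and a median log2 fold change of -0.16, against -0.03 over all tested genes. Jak2, a kinase of the interferon gamma receptor, averaged 33.8 ± 3.64 TPM in M2 and 11.7 ± 1.05 TPM in M0 (SD, n = 3 each; limma adjusted p = 1.15e-05). Il4ra, the IL-4 receptor chain, and Ifngr2, a chain of the interferon gamma receptor, were the other 2 that rose. The kinases that phosphorylate IRF3 and IRF7 were both lower: Ikbke averaged 26.2 ± 2.58 TPM in M2 and 48.9 ± 2.18 TPM in M0, and Tbk1 32.3 ± 3.04 TPM in M2 and 44.2 ± 1.97 TPM in M0. Il13ra1 and Jak3 were 1.75-fold and 1.67-fold lower. The interferon receptor genes Ifnar1, Ifnar2 and Ifngr1 did not pass.

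Among sensors and adaptors, 2 were higher and 7 lower of 16 tested, with a median of -0.19. The lower genes numbered between 5 and 8 with a library left out. The Myd88 call (limma adjusted p = 0.0431) ended under 9 of 13 alternatives. Among these were any M0 replicate left out, no filter and limma-voom on recovered reads. Irak2, a kinase of Toll-like receptor signalling, averaged 12.9 ± 0.549 TPM in M2 and 25.7 ± 1.66 TPM in M0, and Ticam1, the TRIF adaptor, 6.76 ± 0.626 TPM in M2 and 13.0 ± 0.661 TPM in M0 (SD, n = 3 each). The RNA sensor gene Ddx58, which encodes RIG-I, was 1.96-fold lower. Cgas, the DNA sensor, was 1.34-fold higher (limma adjusted p = 0.00213) and Tlr4, the lipopolysaccharide receptor, was 1.44-fold higher (limma adjusted p = 0.00707).

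STAT genes fell or did not pass. Of 6 tested, 0 were higher and 4 lower by limma, with a median of -0.40, and 0 were higher at an unadjusted p under 0.05 and 0 with limma-voom on recovered reads. Stat2, the ISGF3 partner of IRF9, averaged 6.64 ± 0.937 TPM in M2 and 10.6 ± 0.396 TPM in M0 (SD, n = 3 each; limma adjusted p = 0.00164), and Stat3 and Stat5b were 1.41-fold and 1.53-fold lower. Stat6, which carries the IL-4 signal, was 1.25-fold lower (limma adjusted p = 0.0168), a call that ended without M0 replicate 1 (0.0516) and without M0 replicate 2 (0.0644).

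DNA-binding partners were split, with 4 higher and 5 lower of 14 tested and a median of 0.02. Those that rose were Cebpa (1.52-fold), Tcf4 (1.37-fold), Fosl2 (1.42-fold) and Ikzf1 (1.30-fold), which encodes Ikaros. Those that fell were Jund, Cebpb, Fos, Nfatc1 and Runx1, between 1.45-fold and 1.59-fold. Jun and Junb, whose products pair with BATF3, averaged 83.2 ± 5.04 and 87.4 ± 2.21 TPM in M2, against 80.8 ± 5.01 and 87.7 ± 4.29 TPM in M0 (SD, n = 3 each), and did not pass. Spi1, which encodes PU.1, averaged 182 ± 10.7 TPM in M2 and 201 ± 8.58 TPM in M0 and did not pass (limma adjusted p = 0.0802), though it did without M2 replicate 3 (adjusted p = 0.0130).

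Among inhibitors and cofactors 4 were higher and 2 lower of 13 tested, with a median of -0.05. Socs1, which blocks JAK signalling, averaged 46.4 ± 2.46 TPM in M2 and 1.09 ± 0.182 TPM in M0 (SD, n = 3 each). Ptpn2, a phosphatase that acts on JAK kinases, and Socs3, a relative of Socs1, rose by 1.23-fold and 1.36-fold. The count of 4 rises was 1, 1 and 2 without M0 replicates 1, 2 and 3 in turn. The Ptpn2 call ended without M0 replicate 1, 2 or 3 (adjusted p = 0.0705, 0.0797 and 0.0615), and so did the Socs3 call (0.117, 0.0625 and 0.0844). The Socs3 call also ended without M2 replicate 1 (adjusted p = 0.117). Ptpn6, the phosphatase SHP-1, and Irf2bpl, a relative of the IRF2 corepressors, were 1.76-fold and 1.47-fold lower. The corepressors Irf2bp1 and Irf2bp2 did not pass.

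Of 15 tested type I interferon targets, the genes that ISGF3, IRF3 and IRF7 act on, 1 was higher and 10 lower, with a median of -0.34. These are 6.67% and 66.7% of the list, against 20.1% and 23.7% of all tested genes. Dhx58, which encodes the sensor LGP2, averaged 8.44 ± 0.659 TPM in M2 and 18.4 ± 0.320 TPM in M0 (SD, n = 3 each; limma adjusted p = 2.15e-05). The antiviral genes Oas3, Oas2 and Ifi44 were 1.61-fold, 1.76-fold and 1.41-fold lower, and Ifit1 was 1.39-fold higher. The 10 lower genes became 6 without M0 replicate 2, 5 without M0 replicate 3 and 6 with no filter. The Ifit1 call (adjusted p = 0.0467) ended under 8 of 12 alternatives, among them leaving out M2 replicate 1 (adjusted p = 0.0743), M2 replicate 2 (0.155) or M0 replicate 1, 2 or 3 (0.0991, 0.110 and 0.120). Ifnb1, the interferon beta gene, had 3 reads over the M2 libraries and 1 over the M0 libraries.

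Targets of interferon gamma and IRF1 counted 3 higher and 7 lower of 16 tested, with a median of -0.21. Ifi47, an interferon-inducible GTPase, averaged 1.57 ± 0.139 TPM in M2 and 6.17 ± 0.741 TPM in M0 (SD, n = 3 each), and Tap1 was 1.64-fold lower, beside Tap2. Cd274, which encodes the checkpoint ligand PD-L1, went against them, with 10.3 ± 0.726 TPM in M2 and 1.94 ± 0.295 TPM in M0 (limma adjusted p = 4.40e-06). The other 2 rises, Gbp3 and Psmb10, were 1.30-fold and 1.21-fold, and with any M0 replicate left out Cd274 was the 1 higher gene of the list. Gbp3 also ended without M2 replicate 1 (adjusted p = 0.0663) and without M2 replicate 2 (0.0683).

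Inflammatory targets of IRF5 and IRF8 counted 2 higher and 5 lower of 9 tested, with a median of -0.43. Tnf averaged 7.45 ± 0.687 TPM in M2 and 23.7 ± 1.00 TPM in M0 (SD, n = 3 each). The NADPH oxidase genes Ncf1 and Cybb were each 1.35-fold lower and the chemokine gene Ccl3 averaged 126 ± 6.93 TPM in M2 and 188 ± 14.8 TPM in M0. Klf4 was 1.92-fold higher and Ctss, a cathepsin, 1.19-fold higher, and the Ctss call ended without M0 replicate 3 (adjusted p = 0.0585). The cytokine genes Il6, Il12a, Il12b, Il23a, Il1a and Il1b lay below the filter, with 10 to 20 reads in all per M2 library and 11 to 26 per M0 library.

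Of 14 genes of alternative activation linked to IRF4, 7 reached the filter. Arg1, Mrc1 and Pparg did so through their M2 libraries alone, with all M0 libraries under 1 TPM, so their direction was fixed by the filter. All 7 were called higher in M2, a count that is therefore given as a description, and 0 were lower by limma, 0 at an unadjusted p under 0.05 and 0 with limma-voom on recovered reads. With no filter 8 were higher and 1 lower, and with a filter of 5 TPM 4 were higher. These genes were put on the list as known markers of the treatment. Arg1, which makes ornithine from arginine, averaged 15.3 ± 0.653 TPM in M2 and 0.174 ± 0.0719 TPM in M0 (SD, n = 3 each). Mgl2 and Mrc1, lectin genes, rose 4.13-fold and 13.8-fold, and Pparg 3.70-fold. The other 7 genes of the list lay below the filter. Chil3, Retnla, Ccl17, Ccl22 and Cd209a had 5, 2, 1, 1 and 0 reads over the M2 libraries. Over the M0 libraries these genes had 0, 1, 1, 4 and 2 reads. Kdm6b was lower in M2 by mean, at 0.499 TPM against 0.883 TPM in M0. Pdcd1lg2 was higher by mean, at 0.205 TPM in M2 against 0.00633 TPM in M0.

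Dendritic cell genes tied to BATF3 and IRF8 showed 2 higher and 2 lower of 9 tested, near the shares over all genes, with a median of -0.21. Id2 averaged 417 ± 8.49 TPM in M2 and 198 ± 1.57 TPM in M0 (SD, n = 3 each), and Nfil3, which encodes E4BP4, rose 1.73-fold. Tap1 and Bcl6 were lower, the Bcl6 call (adjusted p = 0.0342) ending without M2 replicate 1 (0.0541), M0 replicate 2 (0.113) or M0 replicate 3 (0.129). Clec9a and Xcr1, markers of cross-presenting dendritic cells, were close to absent. Clec9a had 1 read over the M2 libraries and 1 over the M0 libraries, and Xcr1 had 14 over the M2 libraries and 12 over the M0 libraries. Other genes of the list were expressed. Cadm1 averaged 142 ± 9.42 TPM in M2 and 152 ± 3.63 TPM in M0 and did not pass (limma adjusted p = 0.186). Wdfy4 averaged 18.35 ± 4.02 TPM in M2 and 24.1 ± 3.58 TPM in M0. It did not pass (limma adjusted p = 0.0795), though it did under 3 of 13 alternatives.

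On mm10, the build in the submitters' processing notes, the Batf3 model of the authors' file lies on chromosome 1 from 191098414 to 191108943, plus strand. Irf8 lies on chromosome 8 from 120736358 to 120756692 and Irf2 on chromosome 8 from 46739745 to 46847458, both on the plus strand. Irf5 lies on chromosome 6 from 29526625 to 29537320, plus strand. Irf7 lies on chromosome 7 from 141263183 to 141266424, minus strand, and Irf3 on chromosome 7 from 44997648 to 45002848, plus strand. Irf1 lies on chromosome 11 from 53770014 to 53777324, Irf9 on chromosome 14 from 55604579 to 55610030, Irf4 on chromosome 13 from 30749233 to 30766981 and Batf on chromosome 12 from 85686720 to 85709087, all on the plus strand. In GENCODE M21, exons of Irf1, Irf3 and Irf7 overlap exons of an antisense gene over 3.40%, 2.56% and 1.19% of their exonic bases, and those of Irf2, Irf4, Irf8, Batf and Batf3 overlap none.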

How the data were processed

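Polyadenylated RNA, selected out of 200 ng total RNA, was sequenced in 3 M2 and 3 M0 libraries, grouped by sample title. Per the submitters' processing notes, bcl2fastq, STAR 2.7.5a, HOMER 4.11.1, DESeq2 and mm10 were used, without roles; the sources used here do not give strand or the handling of multiple mapping. The authors deposited TPM values per gene, and a second table whose values per library were read as log2 from their range. The authors' comparison in it gives a p-value, its adjusted form and a log2 fold change, positive where M2 is higher. TPM times model length fell in whole steps, within 0.1 read for 100% of the values fine enough to tell, which gave reads.

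Genes reaching 1 TPM in 3 or more libraries were fitted on log2(TPM + 1) with limma 3.58.1 (R 4.3.3) by group, with a variance trend and Benjamini-Hochberg adjustment over all 11202 genes, and called at an adjusted p under 0.05. The log scale understates changes of low genes. Fold values are ratios of mean TPM. No pair of replicates was a duplicate (chi-square per degree of freedom of 2.18 or more). The fit was tested on simulated reads. Plots and tables used Python 3.11.15. Members and lists were chosen with earlier results of these data known. Named genes were the members, up to 4 called genes per list by adjusted p, every called gene of a direction with 5 or fewer, and the 3 nearest profiles to the largest rise and fall. Others were named after their values were seen. Some listed genes are counted but not reported by name here.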

Additional observations from a re-analysis of the deposited data

How the results depend on the processing

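The 8 tested members kept their direction under all 13 alternatives (a pseudocount of 0.1, no filter, a filter of 5 TPM, median-of-ratios scaling, the replicate block, limma-voom on recovered reads, the deposited log2-scale values, and each library left out). Of 104 member results, 102 kept their side of the threshold, and the other 2 were Irf1 without M0 replicate 1 or 3. Members called numbered 7, and 6 to 7 with a library left out. Genes called over the table numbered 4899 and ranged from 3556 to 5694 with a library left out, the highest without M2 replicate 3. Listed genes called numbered 74, and 59 to 79 with a library left out. Same-numbered M2 and M0 libraries had deviations correlated at -0.03, 0.21 and 0.03, and other-numbered ones at between -0.20 and 0.17. So few libraries do not show a pairing by number and cannot exclude one. With the replicate block 4870 genes and 7 members were called. The summed IRF level stayed within the spread between libraries under rescaling and with each library left out, which were chosen after seeing the data. Among 116 listed genes, 83 of 1489 results lost the call, 17 gained it and 0 reversed. Depth limits Irf4, with 18 to 30 reads per library, and Batf, with 0.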
